A study of Mus musculus with 9 samples.

Results

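Complement is a set of plasma and cell-surface proteins that tag microbes and damaged cells for uptake. Its classical pathway starts when C1q binds a target, its lectin pathway starts with sugar-binding proteins, and its alternative pathway amplifies deposited C3 fragments on a surface. Cleavage of C3 and C5 releases the small peptides C3a and C5a, called anaphylatoxins, which act on cells through G protein-coupled receptors. The liver makes most plasma complement, and macrophages are known as a local source of C1q, C3 and properdin and as carriers of complement receptors.

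The set described here comprised 9 genes taken by symbol from the table of 55401 genes: C3, the C1q chain genes C1qa, C1qb and C1qc, the alternative pathway genes Cfb and Cfp, the anaphylatoxin receptor genes C3ar1 and C5ar1, and the C1 inhibitor gene Serping1. RNA had been sequenced from wild-type RAW264.7 cells, a mouse macrophage line derived from a virus-induced tumour in a male mouse, after treatment with DMSO (the vehicle), with DMSO and LPS (LPS group), or with LPS and skatole (LPS + Ska group). LPS, a component of bacterial walls, was used to polarize the cells towards the M1 state, and skatole is a methylated indole. Each group had 3 samples, numbered 5, 6 and 7 in the labels, and nothing in the labels says whether they came from separate cultures. The labels and the paper's results section give 24 h of treatment, and the paper's methods section gives another time for these RNA samples. The skatole dose of these samples is not given in the sources used here. All cells were 1 line, so no difference between cell sources or animals was sampled.

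The values are TPM, a length-scaled share of each sample, so levels of different genes can be set side by side, but sequencing depth is unknown and no counting interval could be given. In the LPS and the LPS + Ska groups the columns were tied: replicate 5 was the mean of replicates 6 and 7 in 17950 of 17950 and 17658 of 17658 genes in which both were above 0, within a tolerance of 1e-05 TPM. An SD over 3 columns of a tied group thus stands on no more than 2 separate values, and n is given there as columns. In such genes each tied column is fixed by the other 2, so leaving 1 out does not test dependence on a single sample. Overlap of columns between groups is described gene by gene, and the share of all genes without overlap is not given here. The 8 macrophage markers checked, Adgre1, Cd68, Csf1r, Cd14, Lyz2, Spi1, Ptprc and Fcgr1, were all above 0 in every column (lowest 18.1 TPM), and their summed TPM was 12362 to 13332 with DMSO, 7316 to 7709 with LPS and 13599 to 13879 with LPS + Ska. This sum was lowest in the LPS columns, where the means of Cfp and C3ar1 were highest, and its part in their values was not tested. The highest single marker value in any column was 10207 TPM, so 1 marker can make up most of the sum. In bulk RNA of 1 cell line, the sum describes marker RNA as a share of all RNA, and not a number of cells. Of 19 markers of hepatocytes, fibroblasts, T cells, B cells, neutrophils and epithelial cells, 12 were at 0 in every column, among them Alb, Cd3e, Ly6g and Epcam, and the highest value of any was 0.672 TPM. The summed TPM of the hepatocyte markers was 0 in all DMSO and LPS columns and at most 0.283 with LPS + Ska.

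RAW264.7 cells carried RNA for part of the complement system. Cfp, C3ar1 and C5ar1 were above 9 TPM in every sample, C3 stayed near or below 1 TPM, Cfb was close to 0, and C1qa, C1qb, C1qc and Serping1 were listed at 0 in all 9 columns. LPS raised Cfp 1.53-fold, and C5ar1 was 1.61-fold higher with LPS + Ska than with DMSO. Of the 3 genes of the set that could be tested, none was called between LPS + Ska and LPS, a comparison in which 9.49% of all genes were called.

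The initiator of the classical pathway was not detected. C1q is built from 3 kinds of chain, encoded by C1qa (ENSMUSG00000036887), C1qb (ENSMUSG00000036905) and C1qc (ENSMUSG00000036896), which lie next to each other on the minus strand of mouse chromosome 4 (GENCODE M21 on GRCm38, from base 136880129, the end of C1qb, to base 136898803, the start of C1qa). Each of these genes was listed at 0 with DMSO, with LPS and with LPS + Ska, so no ratio between the chains could be formed. Serping1 (ENSMUSG00000023224; chromosome 2, 84765387 to 84775444), which encodes the inhibitor of the C1 proteases, was likewise listed at 0 throughout. A listed 0 is not a measured absence, because the depth is unknown. None of 20 genes that every cell uses, such as Actb and Tbp, was at 0 in any column, the lowest being at 11.1 TPM, whereas 54.5% of all genes in the table were at 0 in every column.

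C3, the central protein of all pathways, was present at a low level. C3 (ENSMUSG00000024164; chromosome 17, 57203970 to 57228136) had 0.799, 1.36 and 0.763 TPM in the DMSO samples, 0.27, 0.269 and 0.271 in the LPS columns, and 0.466, 0.439 and 0.494 in the LPS + Ska columns. All DMSO samples lay above all LPS + Ska columns, which in turn lay above all LPS columns. The group mean was 0.973 ± 0.333 TPM for DMSO (SD, n = 3), 0.27 ± 0.000915 for LPS (SD, n = 3 columns) and 0.466 ± 0.0276 for LPS + Ska (SD, n = 3 columns). With a mean of 0.57 TPM over all columns, C3 did not reach the mean of 1 TPM required for testing. When no filter was applied, limma on log2(TPM + 1) put C3 at -0.62 on the log2 scale in LPS compared with DMSO (standard error 0.11, adjusted p = 0.0034), which passed the limits for a call (given with Cfp), and of the 25181 genes then tested 17.6% were called and 10.3% were called lower. The value without DMSO replicate 6, the highest sample, was -0.49 (adjusted p = 1.3e-04), which is inside the fold change limit. A smaller pseudocount of 0.1 gave -1.49 (adjusted p = 0.0025), because adding 1 to such low values understates their change. Without a filter, C3 differed between LPS + Ska and LPS by 0.21 (adjusted p = 0.23, 5.54% of genes called) and between LPS + Ska and DMSO by -0.42 (adjusted p = 0.019, inside the fold change limit, 19.5% of genes called). The latter was called with the pseudocount of 0.1 (-0.88, adjusted p = 0.025), and had an adjusted p of 0.086 with the recovered values described with C5ar1.

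The alternative pathway genes lay at opposite ends of the range. Cfb encodes the protease precursor that joins C3b in the alternative pathway convertase, and Cfp encodes properdin, which stabilizes that convertase. Cfb (ENSMUSG00000090231; chromosome 17, 34856374 to 34862518) was listed at 0, 0 and 0.791 TPM with DMSO, at 0.149, 0.447 and 0 with LPS, and at 0.0433, 0.0351 and 0.0515 with LPS + Ska. The 3 groups overlapped, and in the DMSO group a single sample held all of the signal. The annotated read-through gene Gm20547 (ENSMUSG00000092511) shares exons with Cfb and its neighbour C2 on the same strand, so the authors' counting could have split reads between these genes, and Gm20547 itself did not exceed 0.434 TPM. Without a filter, Cfb differed by -0.04 on the log2 scale in LPS compared with DMSO (adjusted p = 0.97) and by -0.18 between LPS + Ska and LPS (adjusted p = 0.66).

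Cfp (ENSMUSG00000001128; chromosome X, 20925454 to 20931555, minus strand) was the most abundant gene of the set, at a mean of 229 TPM, above 94.9% of the 12819 genes tested. It had 197.9, 188.2 and 170.1 TPM in the DMSO samples, 284.4, 285.2 and 283.5 in the LPS columns, and 216.7, 196.7 and 236.7 in the LPS + Ska columns. Every LPS column exceeded every column of the other groups, and the lowest LPS + Ska column lay just below the highest DMSO sample. Cfp averaged 185 ± 14.1 TPM for DMSO (SD, n = 3), 284 ± 0.849 for LPS (SD, n = 3 columns) and 217 ± 20 for LPS + Ska (SD, n = 3 columns).

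Fold changes were tested with limma on log2(TPM + 1) across the 12819 genes with a mean of at least 1 TPM, with Benjamini-Hochberg adjustment over all of them. A gene was called changed at an adjusted p below 0.05 together with a fold change above 1.5 or below 0.67. The fit counted the tied columns of a group as 3 separate values. Its standard errors, intervals and p-values thus assume more separate values than the LPS and LPS + Ska groups hold. Of the 9 genes, Cfp, C3ar1 and C5ar1 entered this test. LPS raised Cfp by 0.62 on the log2 scale (standard error 0.08, adjusted p = 1.1e-04). It was the only one of the 3 tested genes called in this comparison, in which 32.7% of all genes were called, 12.7% higher and 20.0% lower. The call rested on a small margin, since without DMSO replicate 7 the change was 0.56 (adjusted p = 5.0e-04) and inside the fold change limit. In LPS + Ska compared with LPS, Cfp was 0.761-fold as high, or -0.39 on the log2 scale (95% confidence interval -0.57 to -0.22, adjusted p = 0.0055), which passed on the adjusted p but not on the fold change. Of all tested genes, 16.2% had a lower log2 fold change in that comparison than Cfp. Compared with DMSO, Cfp with LPS + Ska differed by 0.22 (adjusted p = 0.028), again inside the limit.

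**Figure D1:**
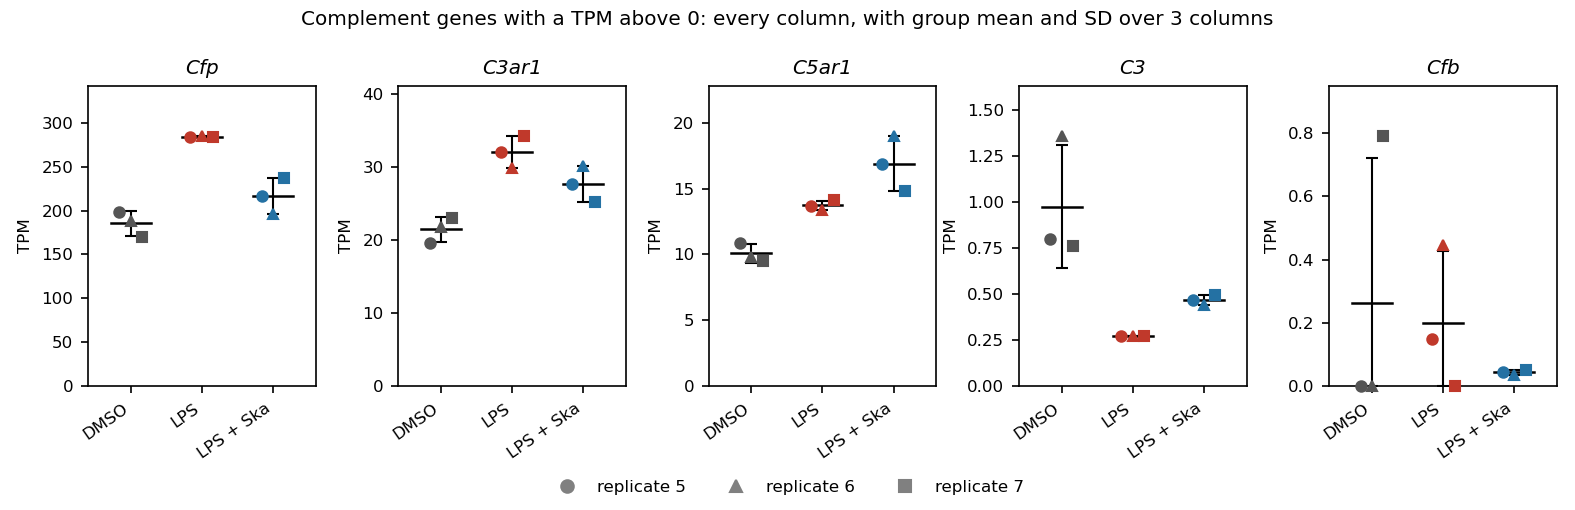
TPM of the 5 genes of the set with a value above 0, in every column (circles, triangles and squares for replicates 5, 6 and 7), with a line at each group mean and bars for the SD over 3 columns, cut at 0. Cfp stood at 283.5 TPM or more in all LPS columns and at 236.7 or less elsewhere, C5ar1 was highest in the LPS + Ska columns, and C3 was lowest in the LPS columns; the y axes differ between panels.

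The anaphylatoxin receptor genes were both expressed, with C3ar1, the receptor for C3a, above C5ar1, the main receptor for C5a, in every column. C3ar1 (ENSMUSG00000040552; chromosome 6, 122847138 to 122856161) had 19.6, 21.7 and 23 TPM with DMSO, 32, 29.8 and 34.2 with LPS, and 27.6, 30.1 and 25.1 with LPS + Ska. All LPS and LPS + Ska columns were above all DMSO samples, and the LPS and LPS + Ska columns overlapped. C3ar1 differed by 0.56 on the log2 scale between LPS and DMSO (95% confidence interval 0.35 to 0.77, adjusted p = 6.3e-04), a 1.47-fold difference that fell short of the 1.5-fold limit. Leaving out DMSO replicate 7 or LPS replicate 6 moved the change to 0.61 (adjusted p = 0.0012 and 0.0015), past the limit, and median-ratio scaling of the columns moved it to 0.64. With LPS + Ska compared with LPS the change of C3ar1 was -0.21 (95% confidence interval -0.42 to -0.00, adjusted p = 0.12), and compared with DMSO it was 0.35 (adjusted p = 0.0083).

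C5ar1 (ENSMUSG00000049130; chromosome 7, 16246743 to 16259540) had 10.9, 9.82 and 9.49 TPM with DMSO, 13.7, 13.4 and 14.1 with LPS, and 16.9, 19 and 14.8 with LPS + Ska. The groups did not overlap, with DMSO lowest, LPS between and LPS + Ska highest. C5ar1 was called higher in LPS + Ska compared with DMSO, at 0.69 on the log2 scale (standard error 0.10, adjusted p = 2.7e-04). It was the only called gene of the 3 tested in that comparison, in which 36.7% of all genes were called, 11.4% higher and 25.3% lower. The steps that make up this difference did not pass the limits on their own: C5ar1 differed by 0.42 in LPS compared with DMSO (adjusted p = 0.0057, 1.33-fold) and by 0.27 between LPS + Ska and LPS (95% confidence interval 0.05 to 0.50, adjusted p = 0.072). The comparisons with LPS use the same LPS columns.

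Within a column, the ratio of C3ar1 to C5ar1 TPM was 1.81, 2.21 and 2.42 with DMSO, 2.22 to 2.43 with LPS and 1.59 to 1.7 with LPS + Ska. The ratio with LPS + Ska lay below that of every other column, whereas DMSO and LPS overlapped. In the order of levels, Cfp was above C3ar1, C3ar1 above C5ar1 and C5ar1 above C3 in each group without overlap, while C3 and Cfb overlapped with DMSO and with LPS.

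In LPS + Ska compared with LPS, limma called none of the 3 tested genes, where 9.49% of all genes were called, 3.35% higher and 6.14% lower. At an unadjusted p below 0.05, all 3 passed, as did 40.5% of all genes. With the recovered values described next, C3ar1 had an unadjusted p of 0.080. On the adjusted p alone, 3, 1 and 3 of these genes passed in LPS compared with DMSO, LPS + Ska compared with LPS and LPS + Ska compared with DMSO, beside 60.3%, 28.6% and 63.3% of all genes. The median log2 fold change of the 3 genes was 0.56, -0.21 and 0.35 in LPS compared with DMSO, LPS + Ska compared with LPS and LPS + Ska compared with DMSO, beside -0.07, -0.10 and -0.18 over all genes tested. How the tied columns were made is not given in the sources used here. If they are the mean of 2 values and that mean plus and minus the difference of these values, the 2 values per gene can be recovered for LPS and for LPS + Ska. Fitted to values recovered in this way, limma made the same calls for Cfp, C3ar1 and C5ar1 (32.5%, 7.82% and 36.3% of all genes were called in the 3 comparisons in that order), and the adjusted p was 2.7e-04 for Cfp in LPS compared with DMSO and 7.1e-04 for C5ar1 in LPS + Ska compared with DMSO.

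Sequences around the start of Cfp, C3ar1 and C5ar1 are shown because these were the genes of the set with RNA enough to test (RefSeq, GRCm38.p6, minus strand of each chromosome, 250 bases before to 50 after the start, at chrX:20931506-20931805, chr6:122856108-122856407 and chr7:16259289-16259588). Capitals mark matches, on either strand, to 7 short motifs of inflammatory, myeloid and xenobiotic-responsive factors, and RefSeq promoters were found for 6 of the 9 genes.
Cfp: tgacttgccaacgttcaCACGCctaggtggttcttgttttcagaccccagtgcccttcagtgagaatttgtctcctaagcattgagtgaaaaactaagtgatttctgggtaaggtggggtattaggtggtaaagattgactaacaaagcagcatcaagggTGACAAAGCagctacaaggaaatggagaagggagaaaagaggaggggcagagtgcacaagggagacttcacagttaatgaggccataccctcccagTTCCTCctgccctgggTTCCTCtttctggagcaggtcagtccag
C3ar1: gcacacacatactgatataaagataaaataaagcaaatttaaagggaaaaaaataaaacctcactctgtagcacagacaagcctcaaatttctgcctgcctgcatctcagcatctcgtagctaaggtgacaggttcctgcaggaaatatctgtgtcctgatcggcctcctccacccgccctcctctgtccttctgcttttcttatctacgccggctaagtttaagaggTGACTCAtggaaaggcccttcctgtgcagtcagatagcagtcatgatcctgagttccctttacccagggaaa
C5ar1: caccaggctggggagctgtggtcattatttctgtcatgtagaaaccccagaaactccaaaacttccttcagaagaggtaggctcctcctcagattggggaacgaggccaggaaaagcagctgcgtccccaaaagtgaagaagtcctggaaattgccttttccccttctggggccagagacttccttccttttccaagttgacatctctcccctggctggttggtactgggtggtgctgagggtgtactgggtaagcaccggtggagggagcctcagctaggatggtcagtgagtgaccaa
The Cfp sequence held GCGTG, the core bound by the aryl hydrocarbon receptor, from base -233 to -229 (as the reverse complement), a match to TGACNNNGC, the antioxidant response element of Nrf2, from base -90 to -82, and GAGGAA, a core bound by the myeloid factor PU.1, at bases 7 to 12 and 23 to 28 after the start (as the reverse complement). The C3ar1 sequence held TGANTCA, the AP-1 site, from base -22 to -16. The C5ar1 sequence held none of the 7 motifs searched. Most of that window lies inside the C5ar1 gene as annotated by GENCODE, which reaches base 16259540, so it covers little sequence before that gene's start. Of 32851 promoter sequences of this length, 32.4% held GCGTG, 12.4% TGACNNNGC, 28.3% GAGGAA and 7.81% TGANTCA. No match to the interferon-stimulated response element (searched by its consensus, 3.44% of promoters) or to the STAT site TTCNNNGAA (8.3%) was found in the 6 promoters, and the kappaB consensus (8.46%) was matched in that of C1qc alone. A match is a run of letters and not a measured site.

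The genes with the most similar profile over the 9 columns were found by the root mean square difference of centred log2(TPM + 1). They were Pdk3 (0.0653) and Gm4332 (0.0776) for Cfp, Snhg14 (0.0387) and Mtbp (0.0398) for C3ar1, and Retreg1 (0.0414) and Memo1 (0.0615) for C5ar1, where the median over all genes was 0.402, 0.390 and 0.451. Pdk3 went from a mean of 44.6 TPM with DMSO to 70.9 with LPS and 54.6 with LPS + Ska, and Retreg1 from 35.9 to 45.7 and 56.0 TPM.

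The rest of the complement system was followed through 45 further genes listed by role, of which 13 reached a mean of 1 TPM, 19 were listed at 0 in every column, and another 13 were low, the highest single value being 1.25 TPM for Cd59b. The genes at 0 included Cfd, the factor D gene, Cfi, C4bp and the terminal components C6, C7, C8a and C8b. Of the 13 tested genes, LPS compared with DMSO called 4 lower and 1 higher, LPS + Ska compared with LPS called 2 higher and none lower, and LPS + Ska compared with DMSO called 6 lower and 2 higher. Over all genes tested, the shares called lower and higher in these comparisons were 20.0% and 12.7%, 6.14% and 3.35%, and 25.3% and 11.4%. For the comparison with no lower call, 3 of the 13 genes were lower at an unadjusted p below 0.05, beside 27.8% of all genes. At the same limit Fcna, Cr1l, Itgam and Itgax were higher, and 40.5% of all genes passed it in either direction. The median log2 fold changes of the 13 genes were -0.49, 0.00 and -0.57 in the same order. C1ra, C2, Fcna, Clu, Cd46 and Itgax passed the filter with some columns below 1 TPM, so the group in which a gene was high could decide whether it was tested, and these counts describe the tested genes only.

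Of the soluble regulators, Clu and C1qbp were called lower in LPS + Ska compared with DMSO and not in the other comparisons, except that Clu was called lower in LPS compared with DMSO without DMSO replicate 6 (-0.65, adjusted p = 0.013, against -0.52 and 0.034 with it). Clu, the gene of clusterin, a soluble inhibitor of the terminal complex, differed by -0.82 (adjusted p = 0.0036), from 1.7 ± 0.543 TPM (SD, n = 3) to 0.522 ± 0.157 (SD, n = 3 columns). With a mean of 0.861 TPM with LPS, Clu reached the mean of 1 TPM through the DMSO samples alone, so the filter favoured a lower call. C1qbp, whose product binds C1q and resides mostly in mitochondria, was the most abundant of these genes at 517 ± 13.6 TPM with DMSO (SD, n = 3), and differed from it by -0.60 with LPS + Ska (adjusted p = 2.3e-04). That call was lost after median-ratio scaling (-0.42), after rescaling without mitochondrial and ribosomal protein genes (-0.55) and without LPS + Ska replicate 6 (-0.51). C1qbp also differed by -0.32 in LPS compared with DMSO (adjusted p = 0.0096) and by -0.28 between LPS + Ska and LPS (adjusted p = 0.037). Both were inside the fold change limit.

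Of the 8 membrane inhibitor genes listed, 3 were tested, namely Cd59a, Cr1l and Cd46. Cd59a, which blocks assembly of the membrane attack complex, had 4.41, 3.63 and 3.93 TPM with DMSO, 7.44, 7.5 and 7.37 with LPS, and 9.33, 7.68 and 11 with LPS + Ska. It rose by 0.76 with LPS (adjusted p = 7.2e-04) and by 1.04 with LPS + Ska compared with DMSO (adjusted p = 9.1e-05), and reads of its close copy Cd59b could have been assigned to it. Cr1l, the rodent membrane regulator Crry that inactivates C3 convertases, had 84, 105 and 101.2 TPM with DMSO, 112.9, 117.1 and 108.7 with LPS, and 150.3, 159.9 and 140.7 with LPS + Ska. It was called in LPS + Ska compared with DMSO, at 0.63 (adjusted p = 1.7e-04), but not without DMSO replicate 5 (0.54, adjusted p = 2.8e-04). Between LPS + Ska and LPS, Cr1l differed by 0.41 (adjusted p = 0.0084), inside the fold change limit, and its columns did not overlap. Cd46, the membrane cofactor gene, was at 1.41 TPM or less in every column and was not called in any comparison, although a pseudocount of 0.1 gave 0.87 (adjusted p = 0.022) and a call in LPS compared with DMSO. With means of 0.715 TPM for DMSO and 1.37 for LPS, Cd46 reached the mean of 1 TPM through the LPS columns, so the filter favoured a higher call. Its change in LPS compared with DMSO was 0.47 (adjusted p = 0.017, or 0.066 with recovered values).

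**Figure D2:**
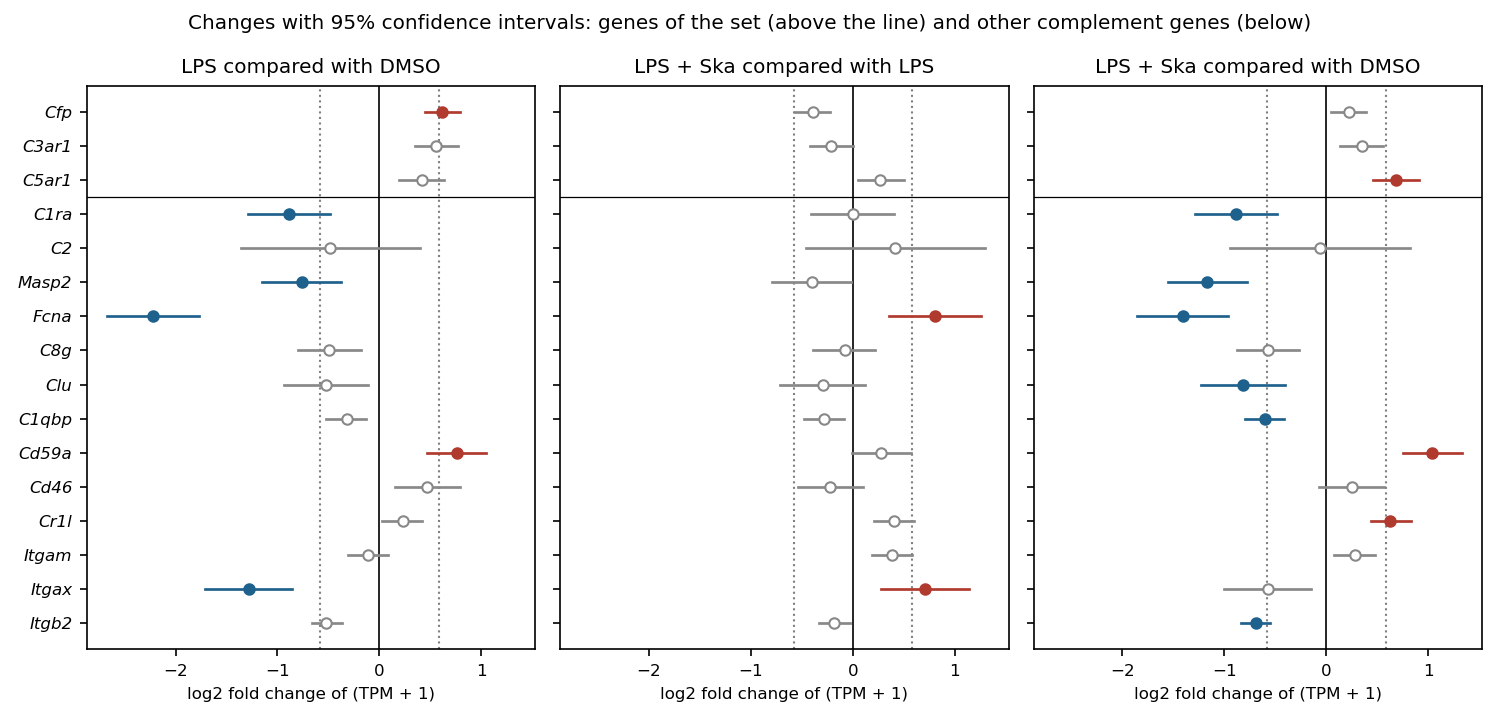
Log2 fold change of (TPM + 1) with its 95% confidence interval for the 3 tested genes of the set, above the horizontal line, and the 13 other complement genes tested, in the 3 comparisons; red and blue filled points were called higher and lower, open grey points were not called, and dotted lines mark the fold change limits of 1.5 and 0.67. Cfp alone of the set was called with LPS, none in LPS + Ska compared with LPS, and Fcna had the largest change of the genes shown, at -2.22.

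Of the 7 classical and 8 lectin pathway genes listed, those tested were C1ra, C2, Masp2 and Fcna. Fcna, the gene of the lectin pathway recognition protein ficolin A, had 12.3, 11.8 and 9.61 TPM with DMSO, 1.69, 0.954 and 2.42 with LPS, and 3.6, 3.14 and 4.06 with LPS + Ska. It was called lower with LPS than with DMSO, at -2.22 (adjusted p = 1.5e-05), and with LPS + Ska than with DMSO, at -1.41 (adjusted p = 2.1e-04). Fcna was called higher with LPS + Ska than with LPS, by 0.81 (adjusted p = 0.016). That call was lost without LPS replicate 5 (0.83, adjusted p = 0.052) and without LPS + Ska replicate 5 (0.80, adjusted p = 0.057). Each of these columns is the mean of the other 2 in its group, so the losses do not show dependence on a single sample. Masp2, the lectin pathway protease gene, had 7.86, 8.83 and 5.04 TPM with DMSO, 3.75, 3.8 and 3.71 with LPS, and 2.6, 2.8 and 2.4 with LPS + Ska, without overlap, and was called lower in both comparisons with DMSO, at -0.76 (adjusted p = 0.0039) and -1.17 (adjusted p = 2.8e-04). C1ra, which encodes a protease of the C1 complex, reached the mean of 1 TPM through the DMSO samples alone (2.5 TPM, against 0.905 with LPS and 0.889 with LPS + Ska) and was called lower than in DMSO, at -0.89 with LPS (adjusted p = 0.0022) and at -0.89 with LPS + Ska (adjusted p = 0.0020). C2, the protease partner of C4, ranged from 1.09 to 5.53 TPM within the DMSO group, and its 3 changes had adjusted p values of 0.31, 0.45 and 0.90. C8g, the only terminal component gene tested, was at 3.31 ± 0.256 TPM with DMSO (SD, n = 3) and differed by -0.57 in LPS + Ska compared with DMSO (adjusted p = 0.0047), just inside the limit. C8g was called lower in that comparison without DMSO replicate 6 (-0.60), DMSO replicate 7 (-0.59) or LPS + Ska replicate 6 (-0.60), and in LPS compared with DMSO without LPS replicate 6 (-0.58). A pseudocount of 0.1 also gave a call in both comparisons, at -0.77 (adjusted p = 0.0064) and -0.66 (adjusted p = 0.015).

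The complement receptors tested beside C3ar1 and C5ar1 were integrins. Itgam and Itgax encode the alpha chains of complement receptors CR3 and CR4, and Itgb2 their shared beta chain. Itgax had 4.22, 3.08 and 3.65 TPM with DMSO, 0.91, 1.15 and 0.671 with LPS, and 2.16, 2.82 and 1.5 with LPS + Ska. Itgax was called lower with LPS than with DMSO, at -1.28 (adjusted p = 3.2e-04). It was called higher in LPS + Ska than in LPS, by 0.71 (adjusted p = 0.022). That call was lost without LPS replicate 5, LPS replicate 7, LPS + Ska replicate 5 or LPS + Ska replicate 6. The change was then 0.71, 0.62, 0.70 and 0.56, and the adjusted p was 0.075, 0.075, 0.082 and 0.055. These columns are tied, so the losses do not show dependence on a single sample. Itgb2 was called lower in LPS + Ska compared with DMSO, at -0.69 (adjusted p = 1.7e-05), and median-ratio scaling moved it inside the limit, to -0.51. Itgb2 already differed by -0.52 in LPS compared with DMSO (adjusted p = 1.3e-04), inside the limit, and by -0.18 between LPS + Ska and LPS (adjusted p = 0.071). Itgam was called in no comparison, and had 58.9 to 63.5 TPM with LPS and 69.9 to 91.5 with LPS + Ska, without overlap. It differed by 0.39 between LPS + Ska and LPS (adjusted p = 0.011) and by 0.28 between LPS + Ska and DMSO (adjusted p = 0.020). Both were inside the fold change limit, and its change in LPS compared with DMSO was -0.11 (adjusted p = 0.32). C5ar2, Cr2, Vsig4 and Cd93 were all below 1 TPM in every column.

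**Figure D3:**
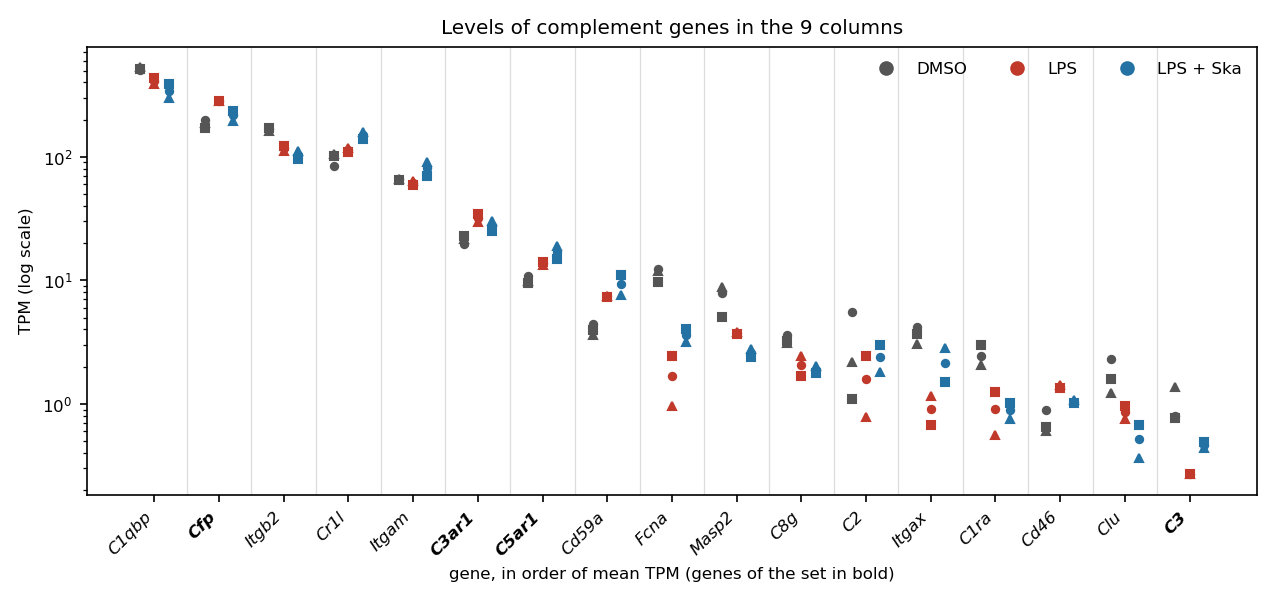
TPM on a log scale of the 13 other complement genes tested and of Cfp, C3ar1, C5ar1 and C3 (bold), in order of the mean over all columns; colours are the groups and symbols the replicates as in the plot of the set. Cfp, at a mean of 229 TPM, came after C1qbp alone, C3 was the lowest, and Fcna had DMSO samples far above its LPS and LPS + Ska columns.

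When tied columns were replaced by recovered values, the same 6, 2 and 9 genes of the 16 tested complement genes were called in LPS compared with DMSO, LPS + Ska compared with LPS and LPS + Ska compared with DMSO. Over all genes, 32.5%, 7.82% and 36.3% were then called. Recovered values come from the same columns, so this is not a separate test. In LPS + Ska compared with LPS, the adjusted p became 0.026 for Fcna and 0.047 for Itgax, from 0.016 and 0.022. Median-ratio scaling shifted the log2 fold changes of all genes by a median of 0.08, 0.09 and 0.17 in these comparisons.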

How the data were processed

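The authors deposited TPM for 9 RNA-seq samples of RAW264.7 cells, 3 each for DMSO, LPS and LPS + Ska. The submitters' processing notes name fastp 0.20.1, HISAT2 2.2.1, StringTie 2.0 and the mm10 build, and the annotation is not given in the sources used here. TPM columns summed to between 999895 and 1000145 and keep no depth. The tied columns of LPS and LPS + Ska were used as deposited, and an alternative used recovered values, which assume how these columns were made: replicate 5 plus and minus 0.5 times the difference from it of the higher of replicates 6 and 7 (none fell below 0 among the 4042 and 4047 genes with 1 of replicates 6 and 7 at 0). Symbols matched 55141 of 55401 identifiers.

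The 9 genes, the 45 other complement genes, the motifs and the tests were chosen with earlier results of these data known. limma 3.58.1 in R 4.3.3 (lmFit, eBayes with an intensity trend) was fitted to log2(TPM + 1) of all 9 columns for 12819 genes whose mean TPM was 1 or more, and was tested on simulated data. p-values measure only the spread between these samples, which may be technical. Except in the fits to recovered values, each tied column counted as a separate value in them. Named genes were all 9 of the set, every other complement gene past the filter, and the 2 genes of most similar profile for each tested gene. Genes outside this rule named as low or at 0 were chosen after their values were seen. Some listed genes are not reported here. Alternatives were another pseudocount, filter, scaling, call limit, prior or set of groups, a replicate block, recovered values and each column left out. For C3 and Cfb, unfiltered fits with a pseudocount of 0.1, recovered values or columns left out were chosen after seeing the data. Figures were drawn with matplotlib 3.10.9.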

Additional observations from a re-analysis of the deposited data

How the results depend on the processing

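Of 300 recomputed values for 15 results (calls per comparison and the change of Cfp, C3ar1 and C5ar1), 267 kept their direction and their side of the limits or stayed within 1.5 times the count, and none reversed. With LPS compared with DMSO, 2 genes of the set were called with no filter (Cfp and C3), 2 after median-ratio scaling and 2 after rescaling without mitochondrial and ribosomal protein genes (Cfp and C3ar1, the latter at 0.64 and 0.60), and between 1 and 2 when 1 column was left out. Without one column, Cfp changed by 0.56 to 0.67 and C3ar1 by 0.50 to 0.61. On the adjusted p alone, 3 genes of the set were called in LPS compared with DMSO (C3ar1 at 0.56 and C5ar1 at 0.42 were added), 1 in LPS + Ska compared with LPS (Cfp at -0.39), and 3 in LPS + Ska compared with DMSO (Cfp at 0.22 and C3ar1 at 0.35 were added), beside 60.3%, 28.6% and 63.3% of all genes. At a 2-fold limit none of the set was called (0 in LPS compared with DMSO, Cfp at 0.62, and 0 in LPS + Ska compared with DMSO, C5ar1 at 0.69). No share of all genes is given for the scaled fits, the left-out columns or this limit, so these counts cannot be set against other genes.

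Among the other complement genes, the adjusted p alone gave 11 and 5 calls in LPS compared with DMSO and LPS + Ska compared with LPS. A 2-fold limit gave 2, 0 and 3 in the 3 comparisons, and a mean TPM of at least 5 left 2, 1 and 5 because fewer genes were tested. The share of all genes called under these last 2 settings is not given here. In LPS + Ska compared with LPS, leaving out a column gave 0 to 2 calls, and 0 without LPS replicate 5 or LPS + Ska replicate 5. Both are tied columns, so these losses do not show dependence on a single sample. The cause of the other changes was not tested.

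The data do not settle whether the replicate numbers pair the samples. Deviations of same-numbered columns correlated at 0.38, 0.15 and 0.13 between LPS and LPS + Ska, whose tied columns make these uninformative, and between -0.032 and 0.08 for the pairs with DMSO. With the replicate block, 4235, 1198 and 4729 genes were called in the 3 comparisons, beside 4189, 1216 and 4700 without it, and the counts of the set stayed at 1, 0 and 1. The unknown depth limits what can be said of genes listed at 0.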
